A study of Homo sapiens with 12 samples.

Results

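The genes described here are 39 genes of homologous recombination and of the Fanconi anaemia pathway, chosen by name for their known roles. The choice was made with earlier results of these data known. The genes were found among the 64253 named entries of an RNA sequencing table. All 39 were present under a single name, and all 39 passed the filter on low levels, so that every gene of the set was tested among 19777 genes. The cells were H1299, a line of human non-small cell lung cancer grown as spheroids, and the libraries fell into 4 groups of 3. In PRKCI_KD the gene PRKCI, which encodes atypical protein kinase C iota, was silenced with a lentiviral short hairpin RNA, and its control NT1 was sequenced on the same flow cell lane. In SOX2_KD the transcription factor gene SOX2 was silenced in the same way, and its control NT2 shared a lane of another flow cell; the labels give both controls as NT. All 4 groups thus share the line and the spheroid culture, and the labels give neither the number of hairpins per target, nor whether the cells were a pool or a clone, nor whether replicates were separate cultures. The p-values therefore measure the spread between these libraries, which may be technical.

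Homologous recombination repairs a broken DNA molecule by copying an intact sister. Nucleases trim the broken ends to single-stranded tails, BRCA2 and its partners prepare the tails for strand exchange, cofactors drive invasion of the sister, and helicases and nucleases then separate the joined molecules. The Fanconi pathway unhooks crosslinks between DNA strands: a core complex attaches ubiquitin to the clamp of FANCD2 and FANCI, which recruits nucleases and hands the break to recombination. Many of these genes are transcribed mainly in S and G2 phase, when a sister is present, and tumours that lose them respond to platinum drugs and PARP inhibitors.

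The values were RPKM, that is, reads per kilobase of gene and per 1 M reads of the library. Whole reads could be recovered from them, with totals of 77.1 to 124.3 M reads per library, and the 39 genes held between 209 and 22818 reads in any library. PRKCI averaged 2.5 ± 0.08 RPKM in PRKCI_KD and 14.8 ± 1.4 RPKM in NT1, and SOX2 averaged 0.564 ± 0.04 RPKM in SOX2_KD and 1.48 ± 0.07 RPKM in NT2 (mean ± SD, n = 3 each), so both targets were lower in the groups named for them. SOX2 was also lower in PRKCI_KD, at 2.02 ± 0.25 RPKM, against 3.01 ± 0.12 RPKM in NT1 (log2 fold change -0.41, limma-trend adjusted p = 0.000251). Of the epithelial markers, KRT8 and KRT18 lay at 34.9 to 141 RPKM, while CDH1, EPCAM and KRT19 were at most 0.62 RPKM. The lung factor NKX2-1 was at most 0.94 RPKM, and the lung secretory gene SCGB1A1 was listed at 0 in all 12 libraries. The 3 immune, 3 endothelial and 4 fibroblast markers lay between 0 and 0.14 RPKM, apart from COL1A1 at 0.28 to 1.07 RPKM.

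A library that stood apart for these genes was NT1 replicate 3. It was the highest of the 3 NT1 libraries for 33 of the 39 genes, against 43.3% of all genes tested. The 20 genes of a G2/M list summed to 688 RPKM in it, beside 481 and 578 RPKM in NT1 replicates 1 and 2. In replicate 1 of PRKCI_KD, NT1, SOX2_KD and NT2, 7, 9, 9 and 11 of the 39 genes exceeded their group mean, and in NT1 replicate 2, 7 did.

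In spheroids with PRKCI silenced, most recombination and Fanconi genes were lower than in NT1. Of the 39 genes, 31 fell, none rose and 8 did not pass the test, where 27.0% of all genes tested fell and 18.1% rose (limma-trend, Benjamini-Hochberg adjusted p under 0.05). On the scale of the test, log2(RPKM + 1), the steepest falls were those of EXO1, which trims broken ends, the tumour suppressor BRCA1, the strand exchange cofactors XRCC2 and RAD54L, and FANCD2, the centre of the Fanconi pathway. By the ratio of group means, PRKCI_KD over NT1, the lowest values were 0.410 for XRCC2, 0.449 for BRCA1, 0.455 for EXO1, 0.462 for POLQ and 0.486 for BLM. The median log2 fold change of the 39 genes was -0.49, beside -0.04 over all genes tested, and the median ratio of the group means was 0.669. With 0.1 or 5 RPKM added in place of 1, that median was -0.57 or -0.29. The 3 PRKCI_KD libraries lay below the 3 NT1 libraries without overlap for 32 of the 39 genes, against 30.0% of all genes. The log2 fold change was negative for 38 of the 39, against 55.5% of all genes, and 16 of the 39 were called and at least 1.5-fold lower on the log2(RPKM + 1) scale, against 5.19% of all genes. Without NT1 replicate 3, 30 of the 39 genes fell, against 26.6% of all genes, and the median log2 fold change of the 39 was -0.39. In bulk RNA, fewer cells in S and G2 phase and less RNA of these genes per cell cannot be told apart.

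**Figure D1:**
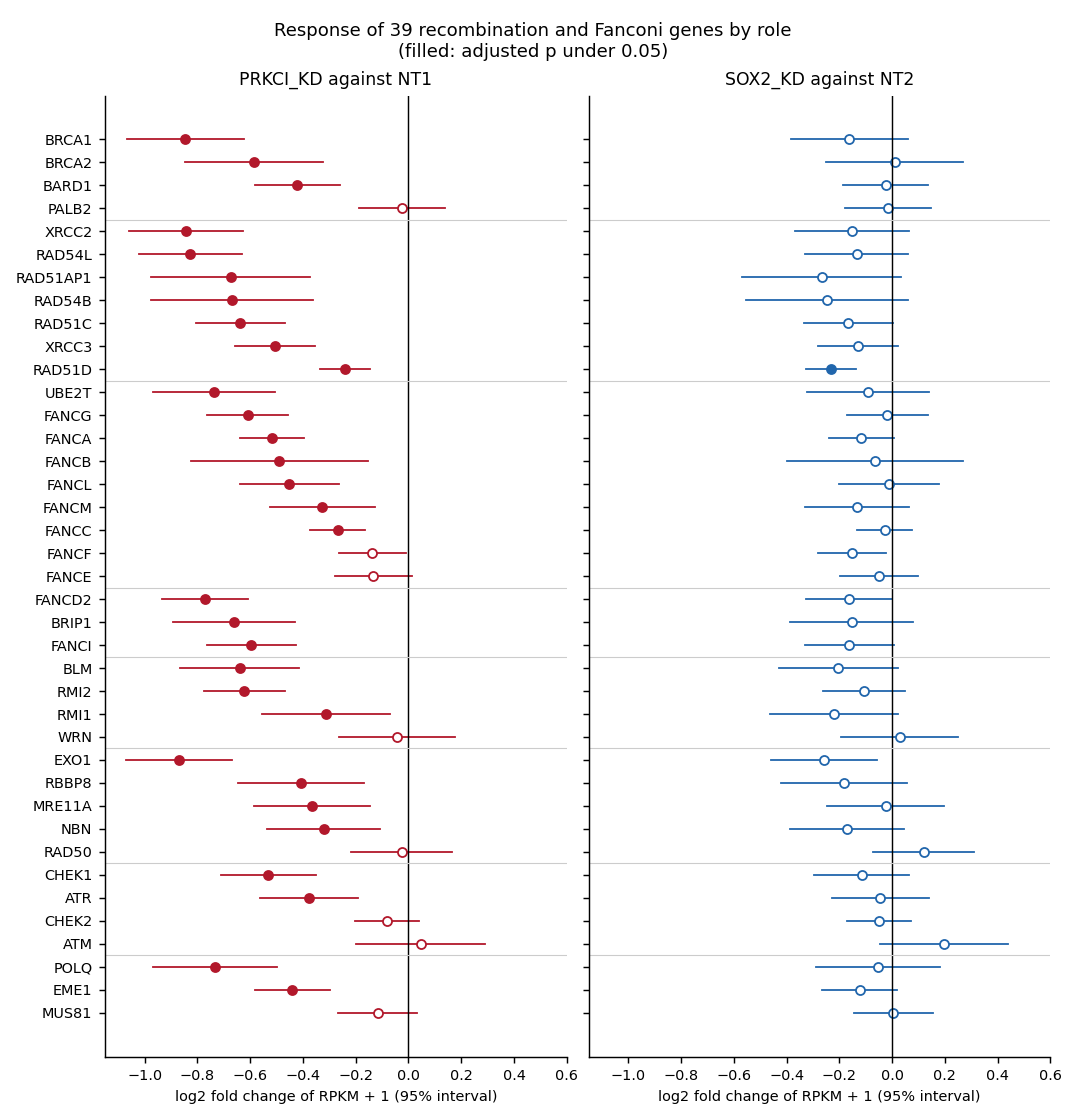
Log2 fold change of RPKM + 1 with its 95% interval for the 39 genes, in role order from the mediators of strand exchange to the nucleases, for PRKCI_KD against NT1 (left) and SOX2_KD against NT2 (right); filled points passed the test. On the left 31 points are filled and all lie below 0, while on the right only RAD51D is filled and all points lie between -0.27 and 0.20.

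Promoters are shown because most of the 39 genes fell together, and because E2F factors and the DREAM complex are known to time many cell cycle genes through short motifs near the start site. The windows run from 250 bases before to 50 bases after the start in RefSeq (GRCh38.p14), and 34 of the 39 genes had a window. Only the first window listed for a gene was searched, so letters near any other start site would be missed. For EXO1 the start used lies downstream of the start of the gene given below. In all, 3 kinds of letters were searched on both strands: the E2F letters TTTCGCGC, TTTGGCGC and TTCCCGCC, the cell cycle homology region (CHR) letters TTTGAA, and the NF-Y letters CCAAT; no matches overlap each other in the windows printed here. The windows printed are those of the 6 genes with the largest log2 fold changes among those that held any of the letters, so that BRCA1, which held none, is not among them. Capitals mark the matches, and each sequence reads 5′ to 3′ on the strand of its gene.
EXO1 (chr1:241847954-241848253, plus strand, E2F letters): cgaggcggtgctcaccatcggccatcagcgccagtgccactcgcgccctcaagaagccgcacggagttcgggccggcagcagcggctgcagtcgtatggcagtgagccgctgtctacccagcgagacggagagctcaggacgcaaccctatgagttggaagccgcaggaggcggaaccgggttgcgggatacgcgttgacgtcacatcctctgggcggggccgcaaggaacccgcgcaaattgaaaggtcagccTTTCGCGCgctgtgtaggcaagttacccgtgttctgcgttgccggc
XRCC2 (chr7:152676092-152676391, minus strand, E2F letters): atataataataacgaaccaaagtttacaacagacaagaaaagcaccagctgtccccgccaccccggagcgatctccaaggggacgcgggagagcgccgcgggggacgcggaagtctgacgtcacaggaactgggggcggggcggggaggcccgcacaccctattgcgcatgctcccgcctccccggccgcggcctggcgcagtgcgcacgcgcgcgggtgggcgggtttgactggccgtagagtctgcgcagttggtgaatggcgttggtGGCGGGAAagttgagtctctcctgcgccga
RAD54L (chr1:46247438-46247737, plus strand, E2F letters and 2 NF-Y matches): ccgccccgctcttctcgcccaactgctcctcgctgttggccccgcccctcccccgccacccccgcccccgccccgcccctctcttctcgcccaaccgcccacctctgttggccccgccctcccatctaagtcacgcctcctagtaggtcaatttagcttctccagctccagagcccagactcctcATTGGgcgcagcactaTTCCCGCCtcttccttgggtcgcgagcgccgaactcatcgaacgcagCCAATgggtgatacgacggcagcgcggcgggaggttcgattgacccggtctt
FANCD2 (chr3:10026187-10026486, plus strand, E2F letters): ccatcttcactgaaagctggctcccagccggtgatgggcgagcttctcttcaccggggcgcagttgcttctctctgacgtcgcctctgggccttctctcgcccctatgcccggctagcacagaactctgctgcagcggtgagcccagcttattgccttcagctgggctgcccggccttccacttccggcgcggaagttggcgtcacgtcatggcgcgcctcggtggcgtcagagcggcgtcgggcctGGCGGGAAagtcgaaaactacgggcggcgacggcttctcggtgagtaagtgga
UBE2T (chr1:202341887-202342186, minus strand, CHR letters and 2 NF-Y matches): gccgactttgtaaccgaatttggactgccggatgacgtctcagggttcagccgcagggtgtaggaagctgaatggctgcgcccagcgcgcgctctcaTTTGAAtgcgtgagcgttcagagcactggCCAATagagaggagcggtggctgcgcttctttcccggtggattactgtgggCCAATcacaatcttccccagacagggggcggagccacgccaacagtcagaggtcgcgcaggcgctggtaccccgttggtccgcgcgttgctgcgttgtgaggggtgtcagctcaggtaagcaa
POLQ (chr3:121545939-121546238, minus strand, E2F letters and 2 CHR matches): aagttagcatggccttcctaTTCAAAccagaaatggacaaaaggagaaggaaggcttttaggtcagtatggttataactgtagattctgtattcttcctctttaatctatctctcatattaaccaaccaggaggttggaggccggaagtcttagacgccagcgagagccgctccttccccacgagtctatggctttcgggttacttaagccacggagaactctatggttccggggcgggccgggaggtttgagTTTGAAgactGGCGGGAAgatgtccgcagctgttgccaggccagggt

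Over the 34 genes with a window, 11 (32.4%) held E2F letters, beside 4.24% of 35116 promoters of the same length. Those promoters were not matched to the 34 for GC content, which ran from 48.0% (FANCM) to 76.0% (RAD51D) in the 34 windows. The share among promoters of like GC content was not tested. The 11 were all among the 27 genes with a window that fell in PRKCI_KD, and none of the 7 that were not called held them. The median log2 fold change was -0.67 for the 11 genes with the letters and -0.38 for the 23 without, which include the 7 not called. Among the 27 that fell it was -0.67 with the letters and -0.47 without. The CHR letters were as frequent in these promoters (14.7%) as in all promoters (15.2%), and the NF-Y letters stood in 47.1% against 34.6%. Of the 27 genes that fell, 10 held none of the letters in this window: BRCA1, BRCA2, BARD1, RAD51C, RAD51D, FANCB, FANCG, RBBP8, ATR and EME1. A match describes the sequence; binding was not measured.

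Among the mediators of strand exchange, BRCA1, BRCA2 and BARD1 fell and PALB2 did not pass the test. BRCA1 (chromosome 17, 43044295 to 43170327) is a ubiquitin ligase that promotes end trimming and recruits PALB2. Gene positions are those of RefSeq on GRCh38. In the PRKCI_KD libraries BRCA1 read 1.80, 1.99 and 2.02 RPKM, against 3.80, 3.87 and 5.27 RPKM in NT1 (log2 fold change -0.85, SE 0.10, adjusted p = 4.98e-05). The groups did not overlap, and NT1 replicate 3 was the highest of the 6 libraries. BRCA2, which prepares the tails for strand exchange, averaged 1.73 ± 0.13 RPKM in PRKCI_KD and 3.13 ± 0.77 RPKM in NT1 (log2 fold change -0.59, SE 0.12, adjusted p = 0.00197). BARD1, the partner of BRCA1, fell by less (log2 fold change -0.42, SE 0.07, adjusted p = 0.000719). PALB2, the bridge between BRCA1 and BRCA2, averaged 3.07 ± 0.12 RPKM in PRKCI_KD and 3.15 ± 0.40 RPKM in NT1, and the interval of its log2 fold change ran from -0.19 to 0.14.

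All 7 cofactors of strand exchange fell. XRCC2 (chromosome 7, 152644776 to 152676141), which works with RAD51D, read 1.18, 1.35 and 1.29 RPKM in PRKCI_KD, against 2.71, 2.76 and 3.84 RPKM in NT1 (log2 fold change -0.84, SE 0.10, adjusted p = 4.54e-05). RAD54L (chromosome 1, 46247688 to 46278473), a motor protein that drives strand invasion, read 3.72, 3.22 and 3.67 RPKM in PRKCI_KD, against 7.39, 5.90 and 7.99 RPKM in NT1 (log2 fold change -0.83, SE 0.09, adjusted p = 2.51e-05). In both genes every PRKCI_KD library lay below every NT1 library, and NT1 replicate 3 was the highest. RAD51AP1 (chromosome 12, 4538890 to 4560047), which stimulates strand invasion, had the highest mean level of this role group over the 12 libraries. It read 4.69, 5.28 and 6.03 RPKM in PRKCI_KD, against 7.95, 8.04 and 11.6 RPKM in NT1 (log2 fold change -0.67, SE 0.14, adjusted p = 0.0021). The groups did not overlap, although PRKCI_KD replicate 3 came nearer to the lower NT1 libraries than the others. The other falls were those of RAD54B, a relative of RAD54L, at -0.67, of the cofactors RAD51C at -0.64 and XRCC3 at -0.51, and of RAD51D at -0.24, all as log2 fold changes with adjusted p of at most 0.00245.

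**Figure D2:**
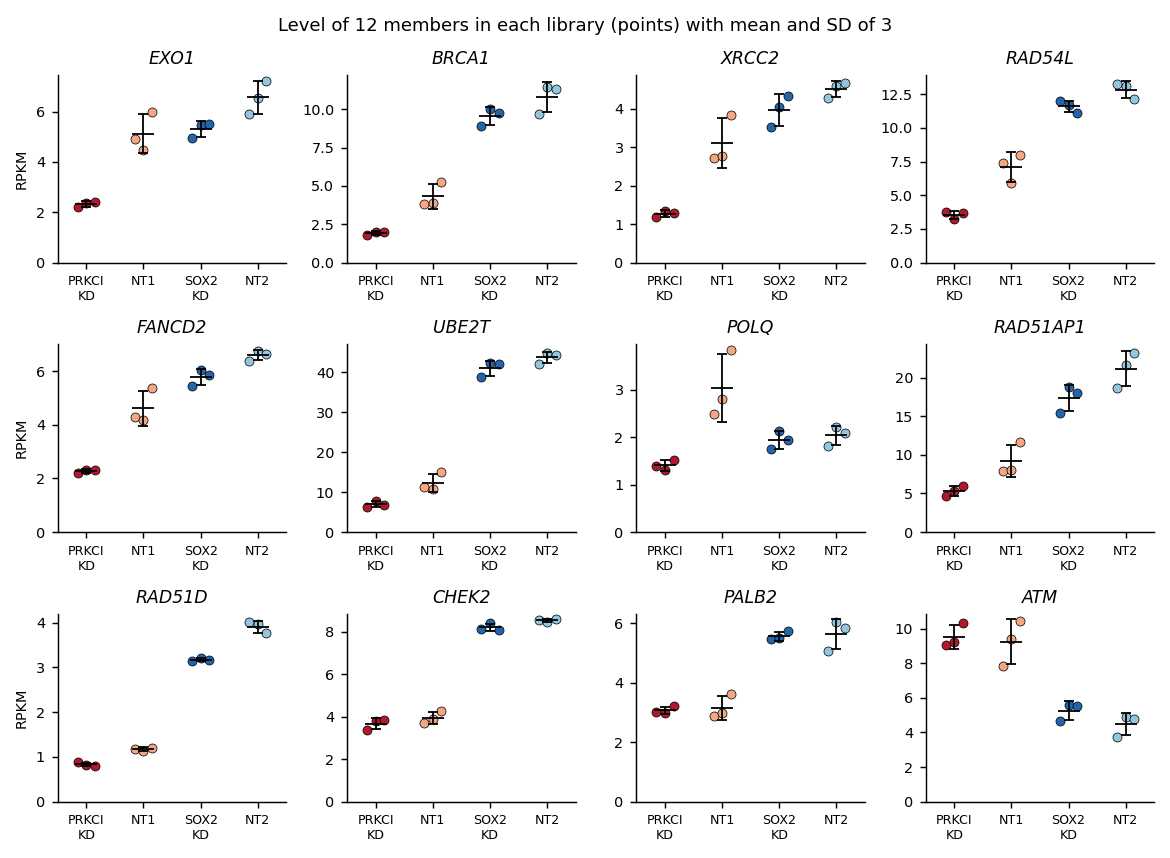
Level in RPKM of 12 of the genes in each library (points), with the mean and SD of 3 libraries (bars), in the order PRKCI_KD, NT1, SOX2_KD, NT2; each axis starts at 0. The first 8 panels are the genes with the steepest falls in PRKCI_KD on the log2(RPKM + 1) scale, where the PRKCI_KD points lie below all NT1 points, while CHEK2, PALB2 and ATM overlap between PRKCI_KD and NT1.

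Of the 9 genes of the Fanconi core complex and its ubiquitin enzyme, 7 fell. UBE2T (chromosome 1, 202331657 to 202341936) is the ubiquitin-conjugating enzyme that modifies FANCD2 and FANCI. It had the highest mean of all 39 genes over the 12 libraries, through its levels in SOX2_KD and NT2. In NT1, NBN, FANCL and FANCG had higher means, and in PRKCI_KD so did these and RAD50, ATM, RBBP8 and EME1. UBE2T read 6.24, 7.70 and 6.90 RPKM in PRKCI_KD, against 11.2, 10.8 and 14.9 RPKM in NT1 (log2 fold change -0.74, SE 0.10, adjusted p = 0.000193). The groups did not overlap, and NT1 replicate 3 was again the highest. FANCL, the ligase that works with UBE2T, fell by a log2 fold change of -0.45, and the scaffold members FANCG and FANCA by -0.61 and -0.52. FANCB, which binds FANCL, was lower (log2 fold change -0.49, SE 0.15, adjusted p = 0.0214), a call that was lost without PRKCI_KD replicate 1 (adjusted p = 0.0679) or 2 (adjusted p = 0.0567) and without a filter on low levels (0.0549). FANCM, the motor that anchors the complex to DNA, and FANCC, which works with FANCE and FANCF, fell less, at -0.33 and -0.27. FANCF and FANCE, adaptors of the complex, did not pass the test, with log2 fold changes of -0.14 (adjusted p = 0.077) and -0.13 (adjusted p = 0.127); FANCF had the lowest mean of the 39 genes in PRKCI_KD and in NT1, at 0.590 ± 0.07 RPKM in PRKCI_KD and 0.749 ± 0.09 RPKM in NT1.

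The clamp itself and its helicase all fell. FANCD2 (chromosome 3, 10026437 to 10101932) read 2.20, 2.32 and 2.31 RPKM in PRKCI_KD, against 4.30, 4.17 and 5.38 RPKM in NT1 (log2 fold change -0.77, SE 0.07, adjusted p = 1.14e-05). FANCI, its partner in the clamp and the gene of this role with the highest mean over the 12 libraries, read 5.07, 5.23 and 5.38 RPKM in PRKCI_KD, against 7.81, 7.80 and 9.75 RPKM in NT1 (log2 fold change -0.60, SE 0.08, adjusted p = 8.94e-05). For both, the PRKCI_KD libraries were tightly spaced and lay below all NT1 libraries. BRIP1, the helicase that binds BRCA1, fell as well (log2 fold change -0.66, SE 0.11, adjusted p = 0.000422).

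Among the enzymes that take joined molecules apart, the helicase BLM fell to 1.16 ± 0.14 RPKM in PRKCI_KD, against 2.39 ± 0.57 RPKM in NT1 (log2 fold change -0.64, SE 0.10, adjusted p = 0.000435), and its cofactor RMI2 fell by -0.62 (adjusted p = 3.39e-05). RMI1, the other cofactor of BLM, had the highest mean of the role over the 12 libraries and read 5.91, 6.80 and 6.92 RPKM in PRKCI_KD, against 7.41, 7.92 and 9.90 RPKM in NT1 (log2 fold change -0.31, SE 0.11, adjusted p = 0.0381). The gap between the groups was narrow, and the call was lost without NT1 replicate 3 (adjusted p = 0.133), without any 1 of the 3 PRKCI_KD libraries (0.0513 to 0.128), without NT1 replicate 2 (0.0544), SOX2_KD replicate 3 (0.0512) or NT2 replicate 2 (0.0506), under both other scalings (0.057 and 0.0709), without a filter on low levels (0.0815) and with the compared groups only (0.055). WRN, the helicase missing in Werner syndrome, averaged 2.65 ± 0.45 RPKM in PRKCI_KD and 2.75 ± 0.35 RPKM in NT1 and was not called.

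Of the 5 genes of end resection, 4 fell. EXO1 (chromosome 1, 241847986 to 241889939), the nuclease of long-range trimming, had the largest change of the 39 genes on the log2(RPKM + 1) scale. It read 2.21, 2.37 and 2.42 RPKM in PRKCI_KD, against 4.92, 4.46 and 6.0 RPKM in NT1 (log2 fold change -0.87, SE 0.09, adjusted p = 2.07e-05). The PRKCI_KD libraries lay close together and well below each NT1 library. RBBP8, which starts trimming, and MRE11A, the nuclease of the MRN complex, had log2 fold changes of -0.41 (adjusted p = 0.00985) and -0.37 (adjusted p = 0.0117). NBN, the MRN subunit that binds ATM and the gene of this role with the highest mean in PRKCI_KD and in NT1, read 12.2, 13.4 and 13.0 RPKM in PRKCI_KD, against 14.7, 15.7 and 18.9 RPKM in NT1 (log2 fold change -0.32, SE 0.10, adjusted p = 0.019). Its call was lost without PRKCI_KD replicate 1 (adjusted p = 0.0639) or NT1 replicate 3 (0.0634). RAD50, the MRN subunit that tethers ends, averaged 10.5 ± 0.79 RPKM in PRKCI_KD and 10.7 ± 1.18 RPKM in NT1 and was not called.

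Of the 4 damage kinases, ATR and CHEK1 fell, and ATM and CHEK2 were not called. CHEK1, the kinase activated by ATR at stalled forks, read 6.33, 6.77 and 7.34 RPKM in PRKCI_KD, against 9.61, 9.61 and 11.7 RPKM in NT1 (log2 fold change -0.53, SE 0.08, adjusted p = 0.000324), and ATR fell by -0.38 (adjusted p = 0.00354). The CHEK1 groups did not overlap. ATM, the kinase of broken ends, averaged 9.52 ± 0.69 RPKM in PRKCI_KD and 9.23 ± 1.30 RPKM in NT1 (adjusted p = 0.775), and its target CHEK2 averaged 3.68 ± 0.25 RPKM in PRKCI_KD and 3.96 ± 0.28 RPKM in NT1 (adjusted p = 0.256). ATM was the only gene of the 39 with a positive log2 fold change, 0.05.

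POLQ and the nuclease subunit EME1 fell, and MUS81 was not called. POLQ (chromosome 3, 121431431 to 121545988), the polymerase of end joining at short homologies, read 1.4, 1.30 and 1.51 RPKM in PRKCI_KD, against 2.48, 2.80 and 3.83 RPKM in NT1 (log2 fold change -0.73, SE 0.11, adjusted p = 0.000224). EME1, which with MUS81 cuts joint molecules, read 6.75, 7.25 and 6.88 RPKM in PRKCI_KD, against 9.26, 9.24 and 11.0 RPKM in NT1 (log2 fold change -0.44, SE 0.06, adjusted p = 0.000231). Neither gene overlapped between the groups, and the spread of POLQ in NT1 was wide, with replicate 3 the highest. MUS81 averaged 4.85 ± 0.25 RPKM in PRKCI_KD and 5.35 ± 0.38 RPKM in NT1 (adjusted p = 0.189).

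In spheroids with SOX2 silenced, the same genes differed little from NT2. RAD51D, a strand exchange cofactor that pairs with XRCC2, was the only gene of the 39 that fell and none rose, where 4.62% of all genes tested fell and 3.56% rose. RAD51D (chromosome 17, 35092221 to 35119860) read 3.15, 3.22 and 3.16 RPKM in SOX2_KD, against 4.01, 3.96 and 3.76 RPKM in NT2 (log2 fold change -0.23, SE 0.04, adjusted p = 0.00869). The groups did not overlap, and the call held in all 12 omissions of a library. Log2 fold changes were negative for 34 of the 39 genes, against 55.9% of all genes, with a median of -0.12 beside -0.02 over all genes. The SOX2_KD libraries lay below the NT2 libraries without overlap for 11 of the 39 genes, against 18.2% of all genes. Same-numbered libraries of these groups deviated together across genes, most strongly in replicate 1. With the replicate as a block, XRCC3, RAD51AP1, RMI1, EXO1 and RAD51D fell and ATM rose, against 10.9% of all genes lower and 6.43% higher. Without NT1 replicate 3, which enters here only through the shared spread, 4 genes fell, RAD51D, RAD51C, FANCD2 and EXO1, against 6.73% of all genes.

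The sizes are small beside those in PRKCI_KD. EXO1 read 4.94, 5.47 and 5.51 RPKM in SOX2_KD, against 5.92, 6.54 and 7.22 RPKM in NT2 (log2 fold change -0.26, SE 0.09, adjusted p = 0.111). BRCA1 read 8.89, 10.00 and 9.74 RPKM in SOX2_KD, against 9.71, 11.4 and 11.3 RPKM in NT2 (log2 fold change -0.16, SE 0.10, adjusted p = 0.377). The EXO1 groups did not overlap, and those of BRCA1 did. FANCD2 read 5.44, 6.05 and 5.86 RPKM in SOX2_KD, against 6.39, 6.76 and 6.63 RPKM in NT2 (log2 fold change -0.16, SE 0.07, adjusted p = 0.214), without overlap. RAD50 and ATM had the largest positive log2 fold changes, 0.12 and 0.20, and neither was called without the block. Over all genes, 705 rose and 913 fell, a split that turned to 899 and 723 after median-of-ratios scaling and to 741 and 574 after quantile normalization. Those 1618 calls became 1044, 662 and 648 without SOX2_KD replicate 1, 2 or 3, 849 and 896 without NT2 replicate 2 or 3, and 3419 with the block.

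The responses to the knockdowns were compared directly, as the log2 fold change in PRKCI_KD minus that in SOX2_KD. For 21 of the 39 genes the response was lower in PRKCI_KD, for none higher, where 14.8% of all genes were lower and 11.2% higher. The largest differences were those of RAD54L (-0.69, SE 0.13, adjusted p = 0.00229), XRCC2 (-0.69), BRCA1 (-0.68), POLQ (-0.68), UBE2T (-0.65) and EXO1 (-0.61), with adjusted p between 0.00229 and 0.00833. RAD54L read 12.0, 11.7 and 11.1 RPKM in SOX2_KD, against 13.2, 13.1 and 12.1 RPKM in NT2. XRCC2 read 3.51, 4.04 and 4.33 RPKM in SOX2_KD, against 4.27, 4.58 and 4.66 RPKM in NT2. RAD54L did not overlap between SOX2_KD and NT2, and XRCC2 did. UBE2T read 38.8, 42.2 and 42.0 RPKM in SOX2_KD, against 42.2, 44.8 and 44.2 RPKM in NT2. POLQ read 1.74, 2.12 and 1.94 RPKM in SOX2_KD, against 1.82, 2.21 and 2.09 RPKM in NT2. Both overlapped between these groups.

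RAD51D, the gene called in SOX2_KD, had responses of -0.24 in PRKCI_KD and -0.23 in SOX2_KD, and the interval of the difference ran from -0.14 to 0.13. Over all settings and omissions the difference lay between -0.15 and 0.04, and the ratios of group means were 0.714 for PRKCI_KD over NT1 and 0.812 for SOX2_KD over NT2. Of the 21 differences, 14 passed the test in all 12 omissions of a library. BLM lost its call in 9 of them (adjusted p 0.0568 to 0.106), and BRIP1, EME1, CHEK1, FANCC, FANCL and BRCA2 in 2 to 5; without SOX2_KD replicate 2 all 7 were lost, leaving 14 genes lower, and without SOX2_KD replicate 3 all but FANCC were lost, leaving 15. The count was 17, 19 and 18 without PRKCI_KD replicate 1, 2 or 3, 19 without SOX2_KD replicate 1, and 19, 20 and 19 without NT2 replicate 1, 2 or 3. In omissions of a PRKCI_KD, SOX2_KD or NT2 library, 2304 to 2799 of all genes tested were lower. Across the 39 genes, the responses correlated with Pearson's r = 0.575 and Spearman's rho = 0.51, beside 0.236 and 0.321 over all genes tested. The pairs share no library, genes are not independent replicates, and these values are given as a description.

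The control groups differed widely from each other. In NT2, 21 of the 39 genes were higher than in NT1, 11 lower and 7 not called, where 36.0% of all genes were higher and 42.2% lower. UBE2T averaged 43.7 ± 1.37 RPKM in NT2 and 12.3 ± 2.28 RPKM in NT1 (log2 fold change 1.76, SE 0.10, adjusted p = 2.35e-08). FANCI averaged 20.4 ± 0.94 RPKM in NT2 and 8.45 ± 1.12 RPKM in NT1 (log2 fold change 1.18, SE 0.08, adjusted p = 4.86e-08). RAD51D averaged 3.91 ± 0.13 RPKM in NT2 and 1.17 ± 0.04 RPKM in NT1 (log2 fold change 1.18, SE 0.04, adjusted p = 3.48e-10). Thus the ubiquitin enzyme of the Fanconi pathway, 1 member of its substrate clamp and a strand exchange cofactor were all over 2-fold higher in NT2, as were BRCA1, RAD51AP1, CHEK2 and FANCF. In the other direction, ATM averaged 4.48 ± 0.64 RPKM in NT2 and 9.23 ± 1.30 RPKM in NT1 (log2 fold change -0.90, SE 0.11, adjusted p = 1.4e-05), and ATR, XRCC3, FANCA and CHEK1 had log2 fold changes of -0.54, -0.49, -0.46 and -0.46. Flow cell, control and pair cannot be told apart here, and levels across the pairs are given with that limit.

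**Figure D3:**
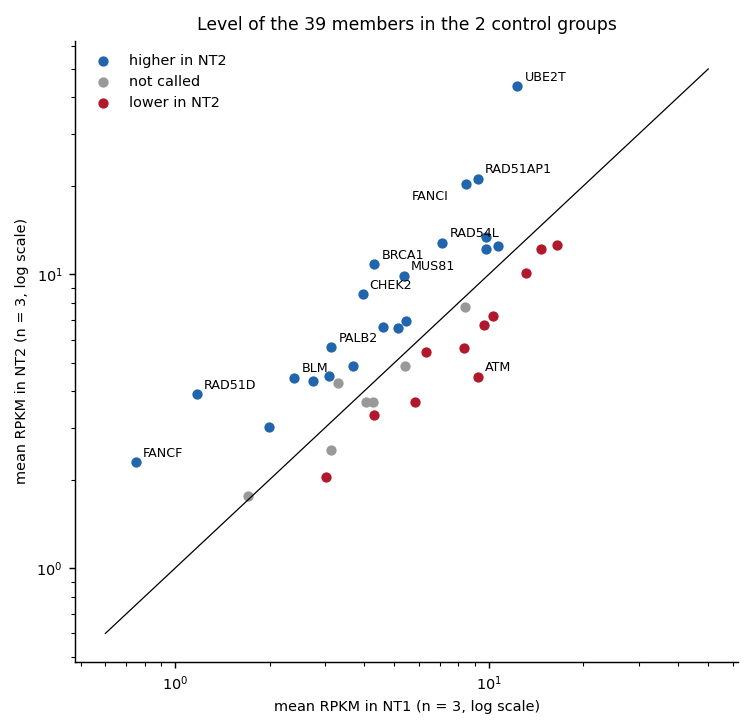
Mean RPKM of the 39 genes in NT2 (vertical, log scale) against NT1 (horizontal, log scale), with the line of equal levels; colours give the call of NT2 against NT1. UBE2T, FANCI, RAD51AP1, BRCA1, RAD51D and FANCF lie well above the line and ATM well below it.

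Of the 32 calls between the controls, 7 were lost when a library was left out. FANCB, FANCE, BRIP1, MRE11A, RAD50 and RBBP8 were lost without NT1 replicate 1 or NT2 replicate 3, most of them also without NT1 replicate 2 or NT2 replicate 2, and FANCL without NT1 replicate 3 or NT2 replicate 1. RAD50, close to the threshold (adjusted p = 0.0445), was lost also without PRKCI_KD replicate 2, SOX2_KD replicate 2 or SOX2_KD replicate 3, which enter through the shared spread. BRCA2, RAD51C, RAD54B and RMI2 each gained a call without 1 or more of the control libraries NT1 replicates 1, 2 and 3 and NT2 replicate 1. The number higher in NT2 then ranged from 16 to 22, and the number lower from 10 to 12. Over all genes tested, 6753 to 7147 were higher and 7817 to 8319 lower when a library was left out. FANCE lost its call under both other scalings (adjusted p = 0.116 and 0.232), and FANCL under median-of-ratios scaling (0.0645). RAD50 and RBBP8 lost theirs without a filter on low levels (0.0796 and 0.0522) and with the compared groups only (0.0813 and 0.0576), and RAD54B gained one under both scalings (0.0305 and 0.0163).

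Set side by side over the 4 groups, PRKCI_KD had the lowest mean for 30 of the 39 genes. NT2 had the highest mean for 20 genes, NT1 for 15, SOX2_KD for WRN, RAD50 and MUS81, and PRKCI_KD for ATM. These orders were not counted over all genes tested and are given as a description. Both comparisons with NT1 share its 3 libraries. Called in both, 15 genes were lower in PRKCI_KD and higher in NT2, among them UBE2T, FANCI, BRCA1, RAD51D and RAD51AP1. Another 9 were lower in both. Neither kind was counted over all genes tested, so these counts describe the 39 genes only. Taken singly, 27.0% of all genes fell in PRKCI_KD, and 36.0% were higher and 42.2% lower in NT2. BRCA1 is an example of the first kind, with means of 1.94 ± 0.12 RPKM in PRKCI_KD, 9.54 ± 0.58 RPKM in SOX2_KD, 10.8 ± 0.96 RPKM in NT2 and 4.31 ± 0.83 RPKM in NT1. CHEK1 is an example of the second, with 6.81 ± 0.50 RPKM in PRKCI_KD, 6.58 ± 0.49 RPKM in SOX2_KD, 7.20 ± 0.32 RPKM in NT2 and 10.3 ± 1.22 RPKM in NT1.

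**Figure D4:**
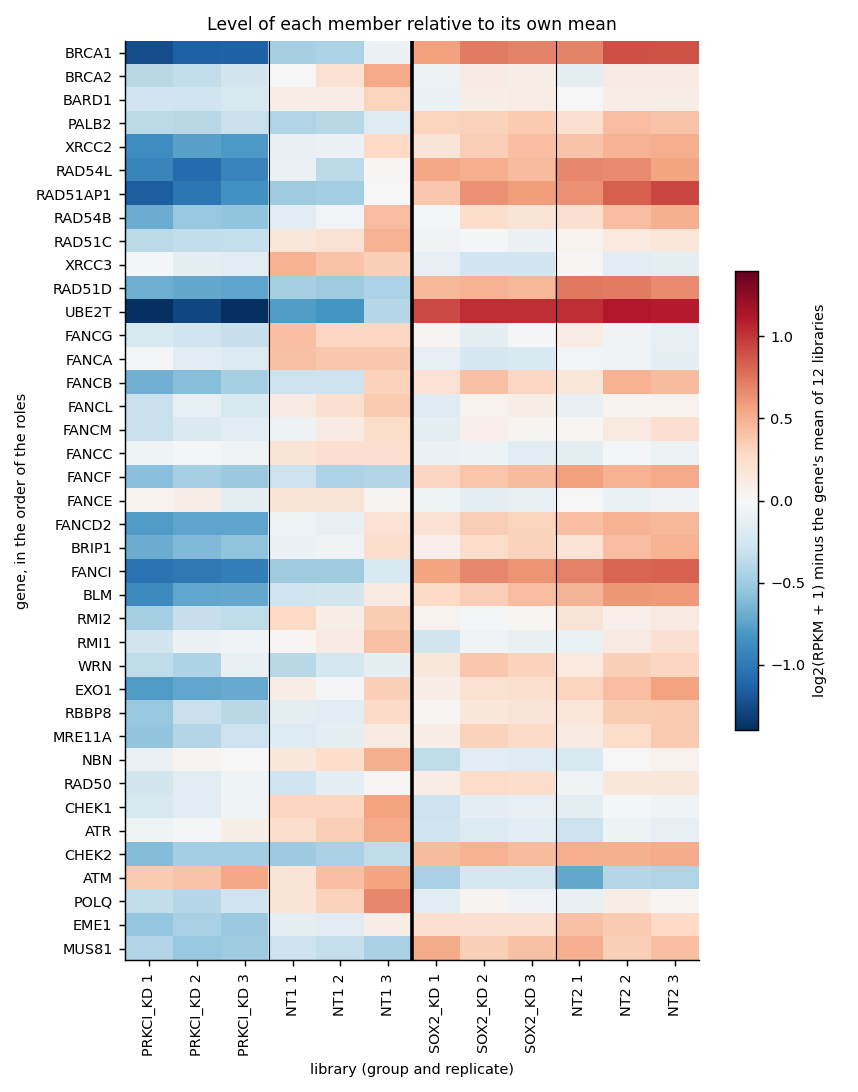
Level of each of the 39 genes in each library, as log2(RPKM + 1) minus the mean of that gene over the 12 libraries (red higher, blue lower), with genes in role order and libraries in the order PRKCI_KD, NT1, SOX2_KD, NT2. The PRKCI_KD columns are blue for most genes, NT1 replicate 3 is redder than the other NT1 libraries, and ATM is red in the first pair of groups and blue in the second.

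Other repair pathways and the cell cycle were read from 9 lists that share no gene with the 39 or with each other, and their counts in PRKCI_KD stand beside the 27.0% of all genes that fell and the 18.1% that rose. Of 36 other recombination and crosslink repair genes, 20 fell and 2 rose in PRKCI_KD, with a median log2 fold change of -0.25. RFWD3, a ubiquitin ligase of the Fanconi pathway, was at -0.74 and STRA13, a DNA-binding partner of FANCM, at -1.0. Of 21 checkpoint and damage signalling genes, 15 fell and 1 rose (median -0.25), with the smallest adjusted p for the fork protection factor TIMELESS (-0.71), the phosphatase CDC25A (-0.78) and the ATR adaptor CLSPN (-1.13). Of 21 base excision and single-strand break repair genes, 13 fell and none rose (median -0.27), among them the uracil glycosylase UNG (-0.99), PARP1 (-0.59) and the flap nuclease FEN1 (-0.84).

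Of 13 non-homologous end joining genes, 6 fell and 2 rose (median -0.21), and the kinase PRKDC (-0.66) and its Ku partners XRCC5 (-0.50) and XRCC6 (-0.28) were among those that fell. Of 7 mismatch repair genes, 2 fell and none rose (median -0.09), or 28.6% lower. Of 18 nucleotide excision repair genes, 6 fell, or 33.3%, and 4 rose (median -0.02), shares near those over all genes: the nuclease ERCC5 (0.46) and UVSSA (0.52) were higher and ERCC8 (-0.47) lower.

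Of 20 S phase replication genes, 18 fell and none rose (median -1.04), with GINS2 (-1.37), MCM4 (-1.04) and MCM3 (-1.03) of the replicative helicase having the smallest adjusted p. All 20 G2/M genes fell (median -1.01), including the mitotic regulators PLK1 (-1.12), CDC20 (-1.10) and TPX2 (-1.21). Of 19 E2F, DREAM and B-MYB factors, 13 fell and 1 rose (median -0.48), with FOXM1 (-1.19), E2F1 (-1.11) and MYBL2 (-1.33) having the smallest adjusted p.

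Levels were summed for the 39 genes and for the S phase and G2/M lists. The 39 genes summed to 164 to 176 RPKM in PRKCI_KD libraries, against 230 to 278 RPKM in NT1 libraries. The S phase genes summed to 253 to 267 RPKM in PRKCI_KD, against 465 to 545 RPKM in NT1, and the G2/M genes to 256 to 271 RPKM in PRKCI_KD, against 481 to 688 RPKM in NT1. Neither list overlapped between the groups, and its part in the fall of the 39 genes was not tested.

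In SOX2_KD, 3 of the 36 other recombination genes fell, among them TOP3A (-0.33) and BABAM1 (-0.37), and none rose. TOP3A is the topoisomerase that works with BLM, RMI1 and RMI2. Of the other lists, 8 of 20 S phase genes, 4 of 19 E2F, DREAM and B-MYB factors, 3 of 21 base excision genes and 1 gene each of the checkpoint, mismatch repair and G2/M lists fell, and no gene of the 9 lists rose, where 4.62% of all genes fell and 3.56% rose. The S phase genes summed to 559 to 570 RPKM in SOX2_KD libraries, against 680 to 690 RPKM in NT2 libraries, and the G2/M genes to 555 to 589 RPKM in SOX2_KD, against 612 to 656 RPKM in NT2. The 39 genes summed to 281 to 303 RPKM in SOX2_KD, against 305 to 329 RPKM in NT2. None of these sums overlapped between the groups, and the part of the lists in the values of the 39 genes was not tested.

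**Figure D5:**
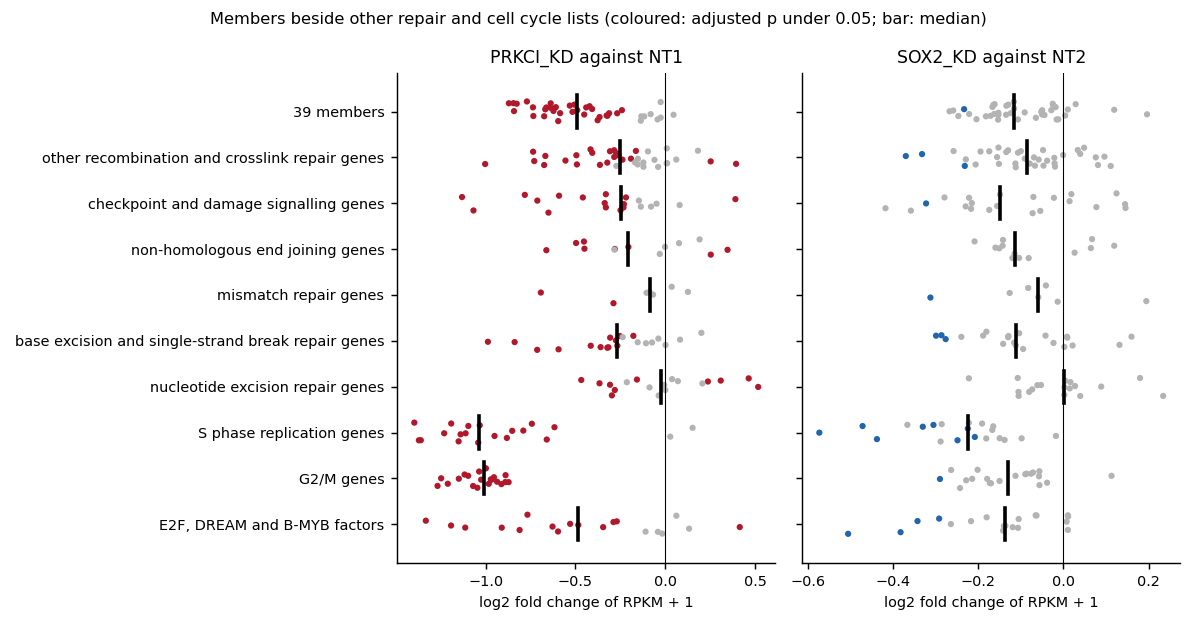
Log2 fold change of RPKM + 1 of each gene (points) in the 39 genes and in 9 other lists, for PRKCI_KD against NT1 (left) and SOX2_KD against NT2 (right, with a narrower axis); coloured points passed the test and bars are medians. In PRKCI_KD the medians are -0.49 for the 39 genes and -1.04 and -1.01 for the S phase and G2/M lists, and in SOX2_KD they lie between -0.22 and 0.00.

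The kit does not mark strand, so reads from a gene and from an antisense partner that share exons cannot be told apart. In GENCODE 29 (GRCh38), 16 of the 39 genes shared no exon base with another gene, and 15 of these fell in PRKCI_KD, where 27.0% of all genes tested fell. Among them were EXO1, XRCC2, UBE2T, POLQ and RAD51AP1. The gene length recovered with the whole reads was 1066 bases for UBE2T, against 1652 exon bases in GENCODE 29. Among these 16, the length was also clearly different for FANCB (3216 against 3593), FANCE (2555 against 2692) and BLM (6552 against 6674). Outside them it was so for BRCA1, RAD54B, FANCC (7913 against 12809), FANCF, RMI2, ATM and CHEK2. The counted exons of all these genes with unlike lengths may therefore differ from those compared here. Of 13 genes that shared up to 10% of their exon bases, 9 fell, and of 10 that shared over 10%, 7 fell. The largest shares were those of RAD50 (79.7%, mostly with a gene on the same strand), XRCC3 (76.7%, with KLC1 on the other strand) and RAD54B (59.1%, with FSBP), and RAD54L shared 25.1% with LRRC41, so the values of these genes are less certain. The 39 genes lie on 18 chromosomes.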

How the data were processed

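The 39 genes, the 9 comparison lists, the roles and the motifs were chosen with earlier results of these data known. Per the labels' protocols, 120 ng of total RNA went into each library, the kit is an unstranded one, and 101 bases were read from both ends. Per the file headers, the authors deposited RPKM values in 1 table. The submitters' processing notes name featureCounts, TopHat2 2.1, Bowtie 1.1.2 and build GRCh38; neither the annotation nor the strand setting of the counting is known here. Entries with a repeated name or a date in place of a name (7091) were left out. Whole reads were recovered from the RPKM values within 0.001 reads; whether both ends of a pair count as reads is not given. The spread of counting covers counting error only.

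The 19777 genes that reached 0.5 RPKM in 3 or more libraries entered a limma-trend fit (R 4.3.3 with limma 3.58.1) of log2(RPKM + 1), with 4 group means over all 12 libraries and Benjamini-Hochberg adjustment over all genes tested at 0.05. Fold changes on this scale understate those of low genes. With 3 libraries against 3, an exact permutation test cannot go below p = 0.1. The scripts were tested on simulated data. Same-numbered libraries of SOX2_KD and NT2 deviated together across genes (correlations 0.51, 0.24 and 0.24), so the blocked count is given beside that result. However, SOX2_KD replicate 2 correlated about as well with NT2 replicate 3 (0.24) as with NT2 replicate 2. Replicate 1 of NT2 and of NT1, which belong to different pairs, also deviated together (0.49). Those of PRKCI_KD and NT1 with the same number did not deviate together in every pair (0.49, -0.11 and 0.34). Library values are printed for up to 8 genes per knockdown with the largest log2 fold changes past the threshold, up to 6 with the largest difference of responses, and the most abundant of each role; from each list, up to 3 genes with the smallest adjusted p; promoters for up to 6 genes with a searched motif and the largest fold changes. Alternatives were other pseudocounts, filters, scalings, a robust fit, the compared groups only, the replicate block and each library left out. Some genes of the comparison lists are counted but not reported here by name. Promoters and gene positions came from RefSeq, and shared exon bases from GENCODE 29.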

Additional observations from a re-analysis of the deposited data

Results flagged for a closer look

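The responses to the knockdowns differed, by the interaction test of the limma fit, for 21 of the 39 genes, each with a lower response in PRKCI_KD than in SOX2_KD. As log2 differences they were, for the strand exchange mediators, -0.68 for BRCA1, -0.60 for BRCA2 and -0.40 for BARD1. Among the strand exchange cofactors they were -0.69 for RAD54L, -0.69 for XRCC2, -0.47 for RAD51C and -0.38 for XRCC3. In the Fanconi core complex they were -0.65 for UBE2T, -0.59 for FANCG, -0.44 for FANCL, -0.40 for FANCA and -0.24 for FANCC. In the clamp and its helicase they were -0.61 for FANCD2, -0.51 for BRIP1 and -0.43 for FANCI. The others were -0.61 for EXO1, -0.68 for POLQ, -0.52 for RMI2, -0.44 for BLM, -0.42 for CHEK1 and -0.32 for EME1. The pairs were sequenced on separate flow cells and had separate controls, so knockdown and flow cell cannot be told apart in these differences. No group had enough libraries for a check of single outlying values.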

How the results depend on the processing

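In PRKCI_KD against NT1, the number of the 39 genes that fell was 29 to 33 over the planned settings (29 without a filter, 30 under both other scalings and with the compared groups only, 32 at a pseudocount of 0.1, 33 with the replicate block) and 28 to 31 when a library was left out; none rose in any of them. Over all genes tested, 4426 to 6387 fell in PRKCI_KD over the same settings. When a library was left out, 4537 to 5516 fell. No called gene changed direction in the comparisons and settings run. With the replicate block, 10768 of 19777 genes were called in PRKCI_KD, 6387 of them lower. In the same setting 26 of the 39 differed between the responses, where 4074 of all genes were lower and 3174 higher. Same-numbered libraries of PRKCI_KD and NT1 did not deviate together in every pair. The responses differed for 18 of the 39 genes without a filter, where 2747 of 43399 genes were lower. At a pseudocount of 5 they differed for 19, where 2917 of 19777 genes were lower. Between NT2 and NT1, 19 to 22 genes were higher and 9 to 13 lower over the same settings. In SOX2_KD against NT2, the block raised the calls over all genes to 3419 and those among the 39 to 5 lower and 1 higher; leaving out a library gave 648 to 2241 genes and 1 to 4 of the 39 lower. The cause was not tested. The 4 uncalled genes PALB2, WRN, RAD50 and ATM changed sign between settings in PRKCI_KD. FANCF, with 209 reads in its lowest library, was called in PRKCI_KD only at a pseudocount of 0.1 (adjusted p = 0.0389), and FANCE and MUS81 only with the block (0.0166 and 0.0441), FANCE also without NT1 replicate 3 (0.0492).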
